A study of Mus musculus with 6 samples.

Results

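Phosphoinositide 3-kinase (PI3K), the kinase AKT and the genes that restrain them were followed in mouse T-cell acute lymphoblastic leukaemia (T-ALL). The 9 genes were taken by symbol from the platform annotation: the PI3K subunit genes Pik3ca, Pik3cd and Pik3r1, the PI3K inhibitor gene Pik3ip1, the lipid phosphatase gene Inpp5d, the kinase genes Akt1 and Akt2, and Ddit4 and Tsc1, which act against mTORC1. They were 9 of 18193 genes measured, and all 31 of their probe sets, each a group of array oligos for a transcript, are described. The leukaemias expressed Notch1-deltaE, a NOTCH1 receptor that signals without ligand, in c-Myc-GFP cells, whose GFP follows MYC, and were grown in congenic recipients of strain C57BL/6 at an age of 12 weeks. CD25+ splenocytes were collected 4 weeks after transplant and sorted by mCherry and GFP into a MycGFP negative and a MycGFP positive group, each with 3 arrays numbered 1 to 3. Both groups shared the transgene, the reporter, the strain, the CD25+ gate and the spleen as source, and the design names 3 independent leukaemias. The promoter behind Notch1-deltaE, and the cells first expressing it, are not given in the sources used here. At issue is how transcripts of MycGFP positive cells, called leukaemia initiating in the title of the series, differ from those of MycGFP negative cells.

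PI3K of class I is a pair of a catalytic and a regulatory subunit that adds a phosphate to a membrane lipid and so makes PIP3, downstream of antigen, cytokine and growth factor receptors. PIP3 draws AKT and other proteins to the membrane, and AKT then phosphorylates, among others, FOXO transcription factors, which leave the nucleus, and the TSC complex, which otherwise keeps the growth kinase complex mTORC1 off. Lipid phosphatases, PIK3IP1, DDIT4 and the TSC complex are brakes at different steps, and in T-ALL the pathway is known for mutations that activate it.

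The arrays carried the mark of the sort. Myc was 2.58-fold higher in the MycGFP positive group, at 2628, 3390 and 2274 against 801, 1135 and 1303 (limma adjusted p = 0.0329). None of 9 measured T cell markers lay below the array median, an intensity of 30.5 to 32.7, on all arrays, and their sum was 71568 to 79961 in the negative and 56776 to 70985 in the positive group. The summed intensity of 9 measured proliferation markers, such as Mcm5 and Pcna, lay at 6398 to 24617 in the negative and 31429 to 37786 in the positive group. The sum of 10 myeloid markers was 10643 on negative array 2 and 2724 on positive array 2, against 217 to 1061 on the other arrays, and 3 of the 10 were below the array median on all 6. The sum of 4 NK cell markers was 131 to 354 in the negative and 51.9 to 127 in the positive group, and Klrd1 read up to 317 and up to 92.5 of it, while 3 of the 4, Ncr1 among them, were below the array median on all 6 arrays. The sum of 4 plasma cell markers was 9356 to 10137 and 7505 to 8048, most of it from Sdc1. B cell (309 to 840 and 318 to 678), dendritic (78.9 to 146 and 76.0 to 94.1), erythroid (70.4 to 97.8 and 67.0 to 86.9), megakaryocyte (126 to 140 and 117 to 128) and stromal sums (777 to 1277 and 620 to 1008) overlapped between the groups. The ratio of 3' to 5' control probe sets, a sign of RNA quality, was 1.582 to 1.889 in the negative and 1.475 to 1.58 in the positive group for Gapdh, and 1.544 to 1.867 and 1.72 to 1.852 for beta-actin, where the groups overlapped. The part of these differences in the results was not tested. In bulk samples fewer cells of a type and less RNA per cell cannot be told apart.

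Of the 9 genes, the catalytic subunit gene Pik3ca and the lipid phosphatase gene Inpp5d were lower in MycGFP positive cells in the unpaired fit. Pik3r1 and Pik3ip1 had separated groups but did not pass, and for Pik3cd, Akt1, Akt2, Ddit4 and Tsc1 the groups overlapped. With the array number as a replicate block Inpp5d still passed (limma adjusted p = 0.0319). Pik3ca then did not (0.066), while Pik3ip1 did (0.0424). Each gene was represented by its brightest probe set. Without the block, Inpp5d and Pik3ca fell, 2 of 9 genes whose two-sided limma p passed 0.05 after Benjamini-Hochberg adjustment over 18193 genes. Of all genes 6.13% passed, 1.51% lower and 4.62% higher, and no member rose. For 4 of 9 genes, Pik3ca, Pik3r1, Pik3ip1 and Inpp5d, all 3 positive arrays lay below all 3 negative arrays, which held for 11.2% of all genes, and for 0 members the order was the opposite, as for 17% of all genes. The median log2 difference (positive minus negative) of the 9 genes was -0.36, and that of all genes 0.01.

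**Figure D1:**
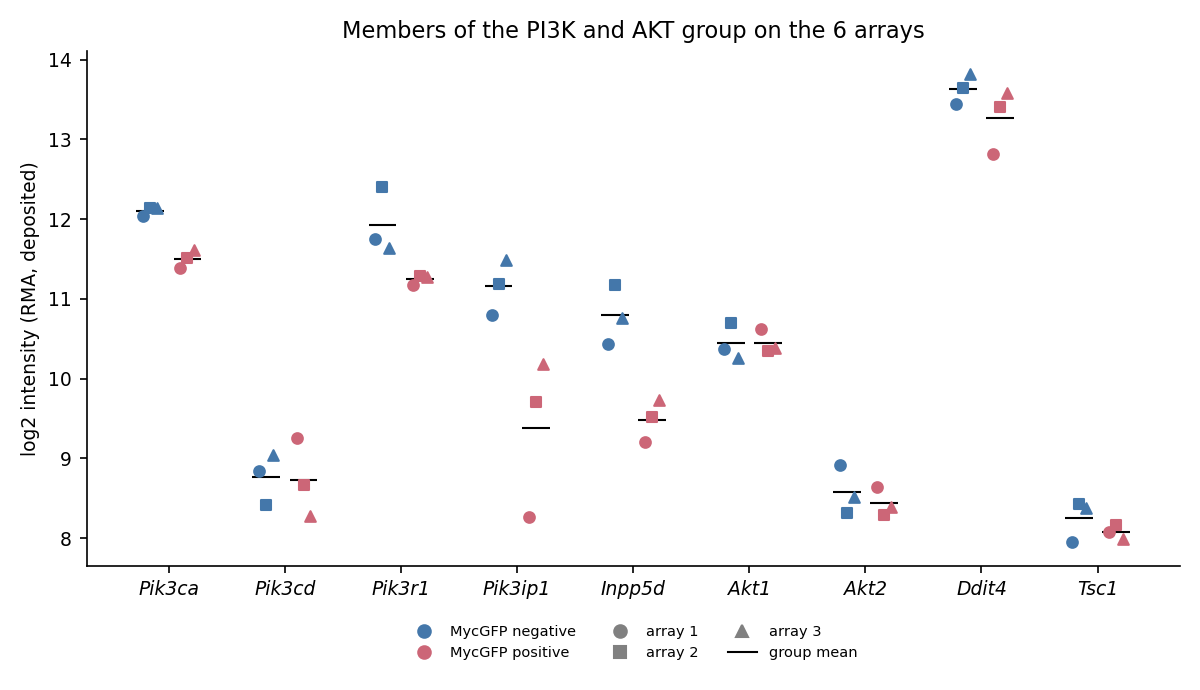
Log2 intensity of the brightest probe set of each of the 9 genes (y axis) on the 3 MycGFP negative and 3 MycGFP positive arrays; marker shapes give the array number and bars the group means. Pik3ca, Pik3r1, Pik3ip1 and Inpp5d lie lower on every positive array than on any negative array, and the other 5 genes overlap.

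Because Pik3ip1, Inpp5d, Pik3ca and Pik3r1 were the members whose groups did not overlap, the stretch from 250 bases before to 50 after their RefSeq start is printed here (GRCm38.p6, given 5′ to 3′ on the strand of the gene). Capitals mark the letters CACCC, or GGGTG on the other strand, a core bound by KLF factors of resting lymphocytes. The windows are chr11:3330481-3330780 on the plus strand for Pik3ip1, chr1:87620062-87620361 on the plus strand for Inpp5d, chr3:32396815-32397114 on the plus strand for Pik3ca, and chr13:101768168-101768467 on the minus strand for the first of 2 Pik3r1 windows.
Pik3ip1: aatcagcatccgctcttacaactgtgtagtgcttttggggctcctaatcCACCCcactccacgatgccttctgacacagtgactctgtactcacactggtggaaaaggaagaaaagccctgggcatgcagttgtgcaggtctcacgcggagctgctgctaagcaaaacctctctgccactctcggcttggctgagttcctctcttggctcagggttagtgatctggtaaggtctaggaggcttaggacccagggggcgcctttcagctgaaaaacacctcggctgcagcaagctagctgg
Inpp5d: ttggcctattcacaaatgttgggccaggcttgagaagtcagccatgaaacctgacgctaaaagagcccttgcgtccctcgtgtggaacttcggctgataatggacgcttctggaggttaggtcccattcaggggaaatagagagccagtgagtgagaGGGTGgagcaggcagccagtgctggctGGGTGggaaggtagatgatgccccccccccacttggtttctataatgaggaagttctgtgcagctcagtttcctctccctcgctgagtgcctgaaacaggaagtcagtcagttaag
Pik3ca: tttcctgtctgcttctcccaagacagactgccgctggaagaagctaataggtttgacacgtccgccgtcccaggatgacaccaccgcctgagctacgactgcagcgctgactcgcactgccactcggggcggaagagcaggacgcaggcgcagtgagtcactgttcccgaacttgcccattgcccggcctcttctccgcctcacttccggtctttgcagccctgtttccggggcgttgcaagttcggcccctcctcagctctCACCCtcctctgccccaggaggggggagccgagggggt
Pik3r1: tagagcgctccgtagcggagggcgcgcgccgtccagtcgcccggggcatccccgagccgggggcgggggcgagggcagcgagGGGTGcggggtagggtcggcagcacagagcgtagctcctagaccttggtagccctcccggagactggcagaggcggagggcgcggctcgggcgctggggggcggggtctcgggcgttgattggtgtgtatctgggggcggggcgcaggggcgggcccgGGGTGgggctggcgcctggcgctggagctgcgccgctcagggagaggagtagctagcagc

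All 9 genes matched, with 16 windows. CACCC was found in 13 of the 16, and in 57.52% of all 32851 promoter windows of this length, so its presence is common. The FOXO letters GTAAACA, on either strand, were found in 1 of the 16, a window of Akt1, and in 3.65% of all. The E-box CACGTG, the letters that MYC and MAX bind, was in 0 of the 16 and in 7.15% of all windows. The 4 windows printed held neither of these 2 motifs. A match is only a match of letters, and no match says only that these letters are not in this window. The Pik3ca and Pik3r1 windows held 63.3% and 75.7% G and C, and those of Pik3ip1 and Inpp5d 54.7% and 53.7%, beside a median of 52.7% over all windows.

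Pik3ca encodes p110α, a catalytic subunit found in most tissues, and it fell by a small but even amount. Probe set 1460326_at read 4228, 4513 and 4512 on negative arrays 1 to 3 and 2670, 2916 and 3135 on the positive arrays. The negative values lay within 1.07-fold of each other and the positive values within 1.17-fold, with a clear gap between the groups. The means were 4418 ± 164 and 2907 ± 233 (SD, n = 3), 1.52-fold lower, with a log2 difference of -0.61 (SE 0.12, 95% interval -0.91 to -0.30, limma adjusted p = 0.0463). With the array number as a replicate block the adjusted p was 0.066, so the call ended. It also ended on leaving out any array, with log2 differences of -0.66 to -0.55 and adjusted p of 0.0771 to 0.143.

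The other Pik3ca probe sets did not all follow. Probe set 1423144_at read 1666, 1779 and 1619 in negative and 956, 1206 and 1201 in positive cells, and 1453134_at read 784, 1135 and 876 against 472, 527 and 641. Both pairs of groups were apart, with log2 differences of -0.60 and -0.76 that did not pass over all 34945 named probe sets (limma adjusted p = 0.0677 and 0.0776). The 3 dimmer probe sets, 1429434_at, 1429435_x_at and 1440054_at, had overlapping groups and differences of -0.29, -0.13 and -0.63. The brightest, 1460326_at, was the only Pik3ca probe set called in that fit, where 6.92% of probe sets passed, 4.76% higher and 2.16% lower.

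Pik3cd encodes p110δ, the catalytic subunit typical of leukocytes. Its brightest probe set, 1453281_at, read 460, 343 and 527 in negative and 609, 407 and 311 in positive cells. The groups overlapped fully, and the highest and the lowest of the 6 values were both from positive arrays. The log2 difference was -0.04 (95% interval -0.75 to 0.67, limma adjusted p = 0.966), so a change of up to 1.68-fold lower or of 0.67 log2 higher lies within the interval. All 6 Pik3cd probe sets overlapped between the groups, at -0.04 to 0.22, and 3 of them were below the array median on all arrays.

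Pik3r1 encodes the regulatory subunit p85α and shorter forms, which stabilise the catalytic subunits and hold them inactive until a receptor is engaged. Probe set 1438682_at read 3448, 5424 and 3199 in negative and 2307, 2509 and 2481 in positive cells. Negative array 2 stood highest, and the positive arrays lay within 1.09-fold of each other. The means were 4024 ± 1219 and 2432 ± 110 (SD, n = 3), and the log2 difference of -0.69 (SE 0.22, 95% interval -1.23 to -0.14) did not pass (limma adjusted p = 0.137).

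All 4 Pik3r1 probe sets had positive arrays below every negative array, a separation seen in 12% of all named probe sets, with the opposite one in 16.6%. Probe set 1425515_at read 3479, 4725 and 3359 against 1846, 2156 and 2364, and 1425514_at read 1550, 1737 and 1444 against 955, 951 and 534. The dimmest, 1451737_at, read 284, 430 and 238 against 162, 166 and 123. Their log2 differences were -0.85, -1.001 and -1.05 and their limma adjusted p 0.0517, 0.0751 and 0.0668, so each missed the threshold. With the replicate block 1451737_at passed (adjusted p = 0.0424). The mean over the 4 probe sets also passed when every gene was represented that way, at -0.90 (adjusted p = 0.0412). Of these 4 probe sets 3 carry the same source accession in the annotation, so they are not independent readings of the gene.

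Pik3ip1 encodes a membrane protein of lymphocytes that binds the catalytic subunit and lowers its activity, and it had the largest difference of the 9 genes. Probe set 1428332_at read 1782, 2340 and 2864 in negative and 307, 832 and 1162 in positive cells. The groups did not overlap, and the positive arrays spanned 3.78-fold, with array 1 far below the others. The means were 2329 ± 541 and 767 ± 431 (SD, n = 3), 3.42-fold lower by geometric means. The log2 difference of -1.78 (SE 0.50, 95% interval -3.00 to -0.55) did not pass without a block (limma adjusted p = 0.0995).

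Within array numbers 1, 2 and 3 the log2 differences were -2.54, -1.49 and -1.30. With the replicate block the SE was 0.29 and Pik3ip1 passed (limma adjusted p = 0.0424), as did 1.95% of all genes in the lower and 5.75% in the higher direction. Without positive array 1 the log2 difference was -1.22 (adjusted p = 0.0991). The second probe set, 1439087_a_at, read 771, 1044 and 744 against 118, 242 and 288. It fell by 2.06 on the log2 scale (SE 0.36), with an adjusted p of 0.0284 over all named probe sets and of 0.0335 with the block. Leaving out positive array 1 kept this call (adjusted p = 0.0426), and leaving out any other array ended it, at adjusted p of 0.054 to 0.0924.

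Inpp5d encodes SHIP1, a phosphatase of blood cells that removes the phosphate PI3K adds to PIP3. Probe set 1418110_a_at read 1387, 2311 and 1741 in negative and 588, 735 and 850 in positive cells. The lowest negative value lay well above the highest positive value. The means were 1813 ± 466 and 724 ± 131 (SD, n = 3), so Inpp5d fell 2.48-fold, with a log2 difference of -1.31 (SE 0.24, 95% interval -1.89 to -0.73, limma adjusted p = 0.0349, and 0.0319 with the block). The second probe set, 1424195_a_at, read 192, 201 and 225 against 145, 128 and 134, a smaller difference of -0.60 that missed the threshold (adjusted p = 0.0518).

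SHIP1 is also made by myeloid cells, and negative array 2, which was highest for Inpp5d, had the highest sum of myeloid markers. On negative array 3 and positive array 3, where that sum was lowest at 281 and 217, Inpp5d read 1741 and 850. These are single arrays, and the part of myeloid cells in the Inpp5d difference was not tested. Without both arrays numbered 2 the Inpp5d difference was -1.14, but no gene was called with these 4 arrays (Inpp5d adjusted p = 0.26, smallest over all genes 0.201, where an unadjusted p under 0.05 was found for 1728 genes higher and 759 lower). The Inpp5d call held without negative array 1 (-1.49, adjusted p = 0.0318). It ended without negative array 2 (-1.12, 0.09) or 3 (-1.32, 0.0737) and without positive array 1 (-1.17, 0.0947), 2 (-1.33, 0.116) or 3 (-1.43, 0.0822).

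**Figure D2:**
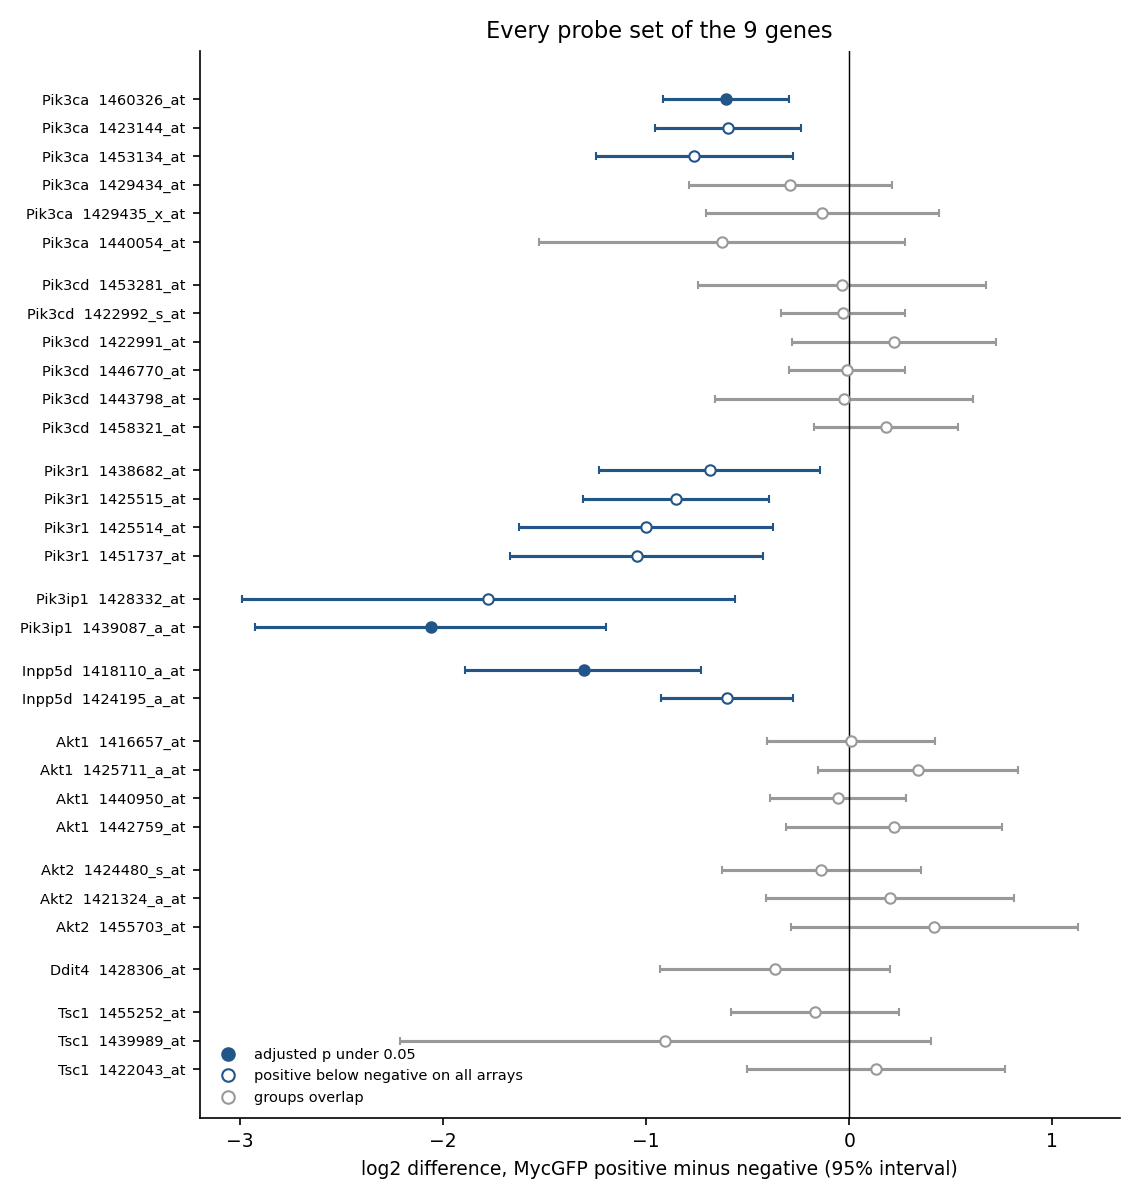
Log2 difference between MycGFP positive and negative arrays (x axis, with limma's 95% interval) for each of the 31 probe sets of the 9 genes, brightest first within a gene. All 4 Pik3r1, both Pik3ip1, both Inpp5d and 3 of 6 Pik3ca probe sets have positive arrays below all negative arrays, and 3 probe sets are filled because they pass over all named probe sets.

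Akt1 and Akt2 encode the kinases that read PIP3. Akt1 probe set 1416657_at read 1321, 1666 and 1227 in negative and 1573, 1302 and 1339 in positive cells. The groups overlapped and their means were nearly equal, at 1405 ± 231 and 1404 ± 147 (SD, n = 3). The log2 difference was 0.01 (95% interval -0.40 to 0.41, limma adjusted p = 0.989), and it turned to -0.14 when each array was centred on its median. The other 3 Akt1 probe sets overlapped too, at -0.05 to 0.34.

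Akt2 probe set 1424480_s_at read 485, 318 and 365 in negative and 401, 313 and 336 in positive cells. The difference of -0.14 had an interval of -0.63 to 0.35 (limma adjusted p = 0.77). The other Akt2 probe sets pointed the other way without separated groups, at 0.20 for 1421324_a_at and 0.42 for 1455703_at. On the latter, positive array 1 stood out at 160, with the other 5 arrays at 69.7 to 89.6.

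Ddit4 encodes REDD1, a stress-induced protein that restrains mTORC1 through the TSC complex, and was among the brightest genes of the array, with 99.7% of genes below it. Its probe set 1428306_at read 11168, 12823 and 14455 in negative and 7248, 10886 and 12293 in positive cells. Each positive array read below the negative array of its number, by 0.62, 0.24 and 0.23 log2, but the groups overlapped. The log2 difference of -0.36 did not pass (95% interval -0.93 to 0.20, limma adjusted p = 0.444, and 0.237 with the block).

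Tsc1 encodes hamartin, which holds the TSC complex together. Probe set 1455252_at read 247, 343 and 331 in negative and 269, 288 and 255 in positive cells. The groups overlapped, and the difference of -0.17 had an interval of -0.58 to 0.24 (limma adjusted p = 0.646). The other probe sets, 1439989_at at -0.91 and 1422043_at at 0.13, lay below the array median on 3 and 5 of 6 arrays.

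Among the other genes of the pathway, 5 rose and 9 fell of 159 measured, from 14 lists of 171 symbols. That is 3.14% higher and 5.66% lower, beside 4.62% and 1.51% of all genes, and of the 5 that rose Mcm5 and Pcna are proliferation markers. With the replicate block 10 rose and 11 fell. An unadjusted p under 0.05, given below for lists in which none passed, was found for 14.7% of all genes higher and 7.35% lower. No gene rose or fell among the other class I PI3K genes, with 0 of 7 (limma; unadjusted p under 0.05 for 0 higher and 1 lower). There Pik3r2, a second regulatory subunit, read 38.9, 72.0 and 88.0 against 83.6, 136 and 126 (limma adjusted p = 0.232). Pik3r5, a regulatory subunit of the G protein-coupled form, read 341, 912 and 272 against 330, 320 and 255 (adjusted p = 0.573), with negative array 2 far above the others. Of 4 class II and III genes 1 fell (25.0%, beside 1.51% of all genes). It was Pik3c2a, which makes other phosphoinositides, and it fell 1.89-fold, from 1218 ± 148 to 645 ± 81.0 (SD, n = 3, limma adjusted p = 0.0319, and 0.0573 with the block).

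Upstream of PI3K, 1 of 14 measured receptor and adaptor genes rose (7.14%, beside 4.62% of all genes) and 0 fell. Il7r, the interleukin 7 receptor chain that signals through PI3K and STAT5, read 351, 989 and 324 in negative and 2454, 3490 and 2517 in positive cells. Every positive array was above every negative one, a 5.77-fold rise (limma adjusted p = 0.0333). For 4 of the 14 every positive array lay below every negative one, as for 11.2% of all genes. Insr, the insulin receptor gene, and Cbl, a ubiquitin ligase gene that restrains receptor signals, had log2 differences of -0.98 and -0.85 (limma adjusted p = 0.194 and 0.218). The others were Cd28 and Icos, at -0.46 and -0.41 (adjusted p = 0.102 and 0.418). All 4 are named here after their values were seen.

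Among 12 inositol lipid phosphatase genes besides Inpp5d, 1 fell (8.33%, beside 1.51% of all genes). Inpp4a, which removes a different phosphate from the product of SHIP1, read 754, 1159 and 956 in negative and 442, 468 and 429 in positive cells. It fell 2.11-fold with separated groups (limma adjusted p = 0.0309). A second, dim Inpp4a probe set, 1421360_at, lay below the array median on all arrays. The related gene Inpp4b, named after its values were seen, was at -1.04 (adjusted p = 0.391).

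Of 14 genes that act on AKT, such as the phosphatase genes Phlpp1 and Phlpp2 and the pseudokinase genes Trib1 to Trib3, 0 passed in either direction (limma; unadjusted p under 0.05 for 4 higher and 1 lower). Trib1 read 144, 244 and 123 in negative and 255, 411 and 447 in positive cells (adjusted p = 0.105), and Phlpp2 read 59.2, 64.1 and 92.6 against 142, 112 and 138 (adjusted p = 0.0678). Both had separated groups. The list of other PIP3 readers, which also takes in genes of related lipids and kinases like AKT, had 13 measured genes. Of these 0 passed (limma, unadjusted p under 0.05 for 0 higher and 5 lower, 38.5% beside 7.35% of all genes). A negative difference was found for 12, and the median was -0.48. Tec, a cytoplasmic tyrosine kinase gene, read 300, 230 and 81.2 against 69.5, 59.9 and 38.1 (adjusted p = 0.117, and 0.0356 with the block, where it passed). Sgk3, a kinase related to AKT, varied within both groups, at 504, 621 and 31.9 against 321, 36.3 and 31.5 (adjusted p = 0.605).

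In the TSC and Rheb list 1 of 10 rose and 0 fell, beside 4.62% higher and 1.51% lower of all genes. A single call in a list of 10 says little about the list. Tbc1d7, the third subunit of the TSC complex beside TSC1 and TSC2, read 44.1, 54.6 and 44.0 in negative and 116, 105 and 104 in positive cells. It rose 2.29-fold (limma adjusted p = 0.0152), while its second probe set, 1457436_at, was dim and overlapped at -0.14. Of 19 mTOR complex genes Telo2, which helps fold and assemble mTOR, rose 1.85-fold, at 89.9, 84.0 and 78.1 against 191, 139 and 140 (limma adjusted p = 0.0401). That call, 5.26% of the list beside 4.62% of all genes, ended with centring on the array median (0.73, adjusted p = 0.0786) and with a trended and robust variance (0.0817). The mTOR complex list had a median of 0.15, and centring each array on its median moved the median of all genes from 0.01 to -0.14.

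Of 12 mTORC1 substrate genes 0 passed (limma; unadjusted p under 0.05 for 2 higher and 1 lower). Eif4ebp1, which binds the cap-binding protein eIF4E, read 47.4, 86.7 and 75.8 in negative and 96.1, 263 and 1015 in positive cells (adjusted p = 0.204), with positive array 3 far above the others. The phosphatidate phosphatase gene Lpin1 read 404, 598 and 742 against 255, 262 and 408 (adjusted p = 0.136, and 0.0493 with the block, where it passed).

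Of 14 AKT substrate genes 1 fell (7.14%, beside 1.51% of all genes). Foxo1, the FOXO factor of resting T cells, read 1069, 1050 and 1425 in negative and 476, 443 and 548 in positive cells. It fell 2.40-fold (limma adjusted p = 0.0195), and 3 of its 4 probe sets passed over all named probe sets. Of 18 genes known as FOXO targets 3 fell (16.7%) and 1 rose (5.56%), beside 1.51% and 4.62% of all genes. Of the 18, 15 had a negative difference, and their median was -0.83, beside 0.01 over all genes. Bcl6, a transcriptional repressor gene, fell 3.47-fold, from 4646 ± 863 to 1336 ± 239. Txnip, which limits glucose uptake, fell 2.53-fold, from 7960 ± 819 to 3261 ± 1021. The gene of the cell death inducer BIM, Bcl2l11, fell 2.07-fold, from 5210 ± 1188 to 2510 ± 462 (SD, n = 3 for each; limma adjusted p = 0.015, 0.0441 and 0.0486). Of the 5 Bcl2l11 probe sets only 1435448_at passed over all named probe sets (limma adjusted p = 0.0457). On the others the groups overlapped, with negative differences and adjusted p of 0.125 to 0.509. The FOXO target that rose was Il7r, against the 3 that fell.

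Of 8 quiescence genes linked to KLF2 and FOXO 4 fell and 0 rose, beside 1.51% lower and 4.62% higher of all genes. Their median was -0.95. Foxo1, 1 of the 4, is also counted among the AKT substrates, so these 2 lists are not separate evidence. The lists were chosen with results of these arrays known, so this direction is no independent evidence. Besides Foxo1, the antiproliferative gene Btg1 fell 1.77-fold, Slfn2, which keeps T cells quiescent, 2.16-fold, and Foxp1, a transcription factor gene of naive T cells, 1.62-fold (limma adjusted p = 0.026, 0.031 and 0.0462, the last 0.0554 with the block). Klf2 itself had a difference of -0.26 with overlapping groups. Of 9 proliferation markers measured 2 rose (22.2%, beside 4.62% of all genes), Mcm5 5.28-fold and Pcna 2.46-fold. For 8 of the 9 every positive array lay above every negative array, as for 17% of all genes. Also for 8 the unadjusted limma p was under 0.05 in the higher direction (88.9%, beside 14.7% of all genes). The median log2 difference of these markers was 2.16. The part of this difference in the other results was not tested.

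Because Ddit4 is induced by glucocorticoids, low oxygen and the transcription factor ATF4, 18 other genes with such inducers were listed, and 0 passed (limma; unadjusted p under 0.05 for 1 higher and 0 lower). Ndrg1, a gene induced by low oxygen, read 104, 235 and 250 against 412, 1169 and 1323 (adjusted p = 0.0724, and 0.0262 with the block, where it passed). Over all named probe sets, where 4.76% passed higher, its probe sets 1420760_s_at and 1450976_at passed without the block (limma adjusted p = 0.0497 and 0.0455). Its probe sets 1456174_x_at, 1423413_at and 1450977_s_at did not (0.0669, 0.0652 and 0.206). Asns, the asparagine synthetase gene, was dim at 11.2, 23.2 and 33.6 against 25.0, 59.5 and 60.8 (adjusted p = 0.276, and 0.0348 with the block, where it passed). The median of that list was -0.01.

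**Figure D3:**
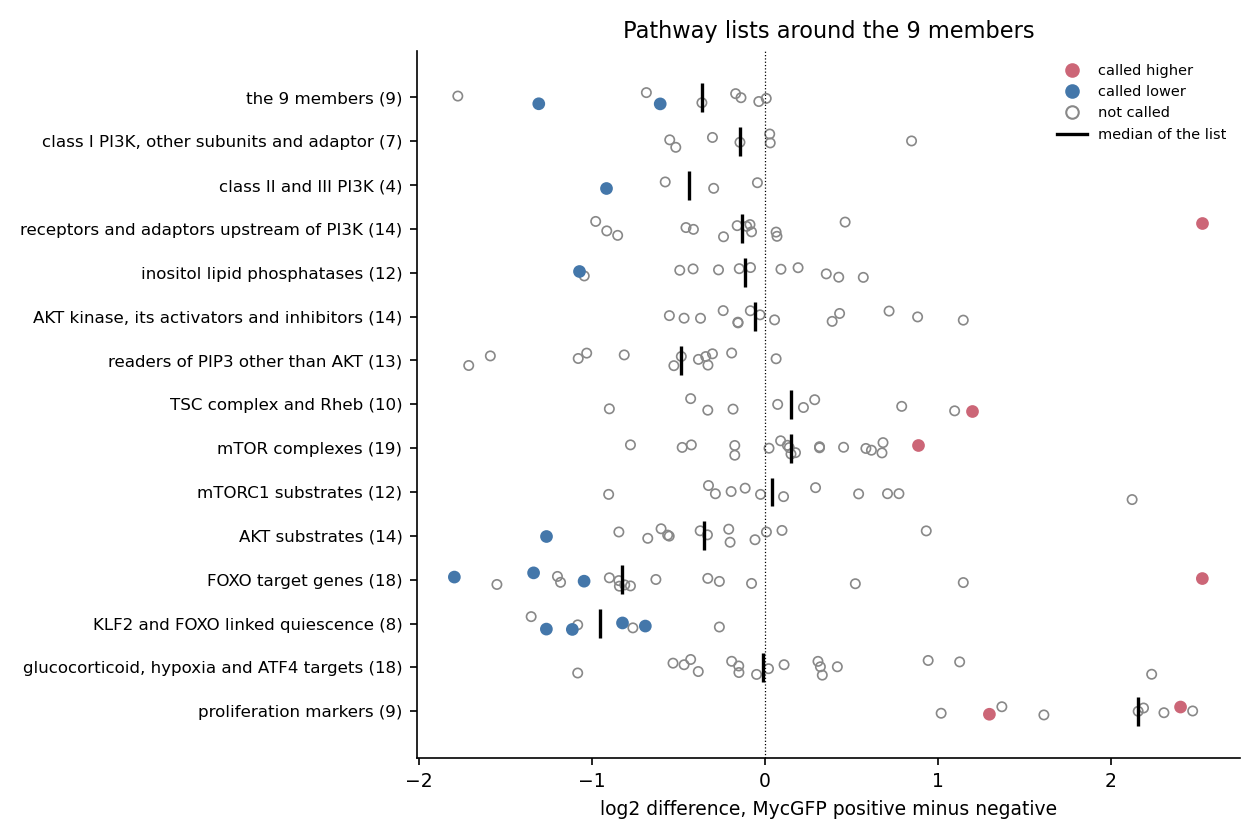
Log2 difference between MycGFP positive and negative arrays (x axis) of the 9 members and of the measured genes of 14 pathway lists (rows, number measured in brackets); filled points passed at an adjusted p under 0.05 and bars are list medians. Of 18 FOXO targets 3 are called lower and 1, Il7r, higher, and of 8 quiescence genes 4 are called lower. The TSC and mTOR complex lists hold 1 called gene each. Of all genes 1.51% are called lower and 4.62% higher.

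The genes whose log2 intensity followed Inpp5d most closely over the 6 arrays were Gsk3b, a kinase gene whose product AKT phosphorylates, with Pearson's r = 0.998, Itpkb, an inositol trisphosphate kinase gene, with r = 0.998, and Rec114, a meiotic recombination gene near the array median, with r = 0.994. The arrays fall into 2 groups, so these values mostly repeat the group difference and are given only as a description. The log2 differences of Gsk3b, Itpkb and Rec114 were -0.33, -0.65 and -0.50, smaller than that of Inpp5d, and none of the 3 passed (limma adjusted p = 0.179, 0.0699 and 0.111).

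The calls moved with the way the arrays were handled, as the plot of adjusted p by setting shows. Pik3ip1 and Pik3r1 kept negative differences in all settings run but passed in few: Pik3ip1 with the replicate block or with all probe sets averaged (adjusted p = 0.0436), and Pik3r1 with averaging alone. Averaging took Pik3ca to -0.50 (adjusted p = 0.111) and Inpp5d to -0.95 (0.0184). Without dim genes, fewer genes were tested and Pik3ca had an adjusted p of 0.0523. Averaging also ended the calls of Inpp4a (-0.64, adjusted p = 0.0549), Tbc1d7 (0.53, 0.089) and Bcl2l11 (-0.78, 0.141). An offset of 16 ended those of Txnip (adjusted p = 0.0552), Bcl2l11 (0.0558) and Pcna (0.0526), and centring that of Pcna (0.0607).

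**Figure D4:**
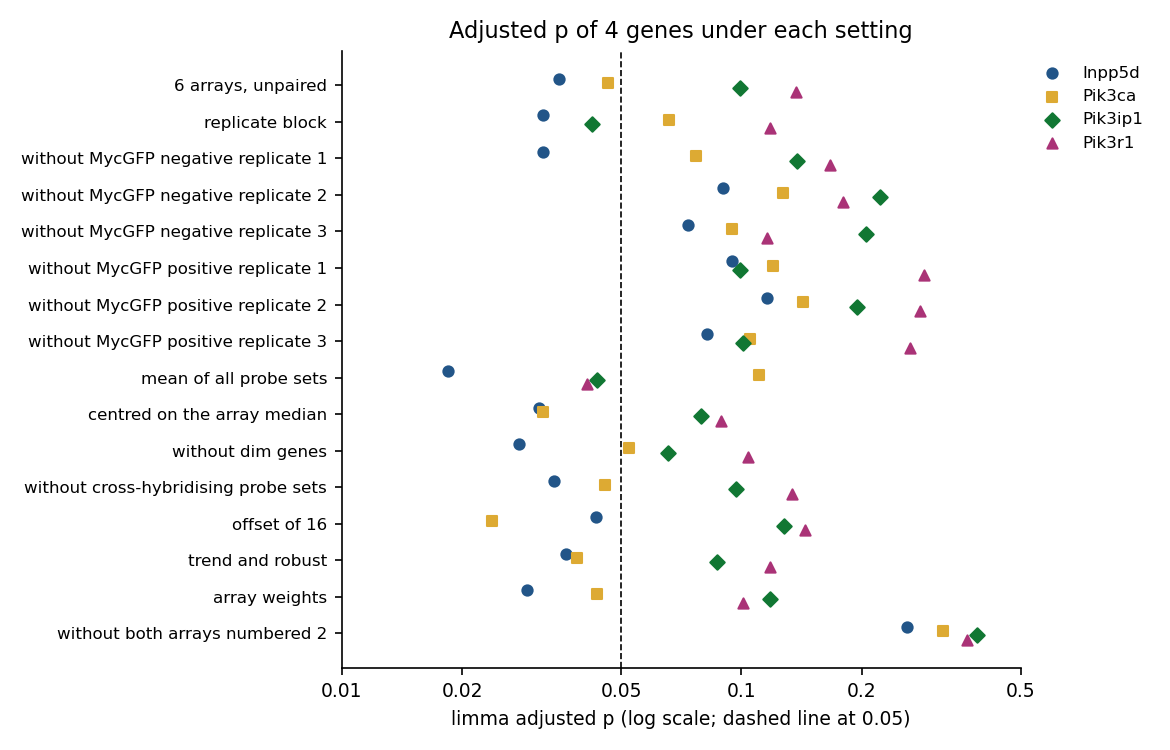
Limma adjusted p (x axis, log scale, dashed line at 0.05) of Inpp5d, Pik3ca, Pik3ip1 and Pik3r1 under the unpaired fit of all 6 arrays and each alternative (rows). Inpp5d lies left of the line in 9 of the 15 alternatives and Pik3ip1 in 2, and all 4 genes lie right of it without positive array 2, where no gene of the array was called.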

How the data were processed

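Total RNA, 5 ng per sample, was amplified with the Ovation system and hybridised to Affymetrix mouse arrays, per the labels' protocols. The authors deposited a linear intensity for each probe set, made with RMA per the submitters' processing notes; its version and a genome build are not given in the sources used here. Because RMA makes arrays alike in overall level, RNA content per cell cannot be compared. Of 45101 probe sets, 34945 had 1 gene symbol, 932 several and 9160 none, and 64 were controls; 34741 matched the RefSeq table of GRCm38.p6 through the Entrez identifier. No coordinates come from the arrays; those of the promoter windows, and their sequences, are RefSeq's.

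Two-sided tests of log2 intensity between the 2 groups, without covariates, used lmFit and eBayes of limma 3.58.1 (R 4.3.3), with a gene represented by its probe set with the highest mean, and separately for all named probe sets. The Benjamini-Hochberg adjusted p had a threshold of 0.05, and a gene is called where it passes. Differences are MycGFP positive minus negative, folds are their antilogs, and means are arithmetic. The fit was tested on simulated data. The number of arrays limits the precision, and the p-values rest on the variation among these sorted samples, part of which may be technical.

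Array numbers were taken to pair arrays only in the replicate block setting, and the main fit was unpaired. Deviations from the group means correlated across genes with r = 0.38, 0.209 and 0.388 for equal numbers. For unequal numbers r was -0.32 to -0.032. Deviations cancel within a group, so negative values for unequal numbers go in part with positive ones for equal numbers. No label ties a number to a leukaemia. Genes were named as all 9 members, up to 4 called genes of each pathway list in order of adjusted p, or the 2 with the largest difference where none passed, and the 3 genes most like the member with the smallest adjusted p. Members and lists were chosen with earlier results of these data known. Other settings tried were the block, leaving out each array, the mean of all probe sets, median centring, no dim genes, no cross-hybridising probe sets, an offset of 16, a trended and robust variance, array weights and, chosen after seeing the data, no arrays numbered 2. Listed genes without a probe set of their own symbol were not analysed here.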

Additional observations from a re-analysis of the deposited data

How the results depend on the processing

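The counts moved on leaving out single arrays. Fewer arrays also make it harder for a gene to pass, and this was not told apart from the influence of a particular array. On leaving out each array in turn, 0 to 862 genes were higher and 0 to 238 lower, against 840 and 275 with all 6 arrays, and the lowest counts came without positive array 2, where limma gave an unadjusted p under 0.05 for 2209 genes higher and 976 lower. Of the 9 members 0 to 1 were lower, and of the other pathway genes 0 to 9 were higher and 0 to 6 lower. Of the 14 other pathway genes that were called and named, 0 stayed called without positive array 2, 1 without positive array 3, 2 without positive array 1 or negative array 2, 5 without negative array 3 and 7 without negative array 1. Without both arrays numbered 2, chosen after seeing the data, 0 genes, 0 members and 0 pathway genes were called in either direction.

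With the replicate block 1047 genes were higher and 354 lower, and pathway genes 10 and 11; 2 members were lower, then Inpp5d and Pik3ip1. Among the named pathway genes it ended the calls of Pik3c2a and Foxp1 and added those of Tec, Lpin1, Ndrg1 and Asns, and it changed no other call of a named gene. Centring on the array median gave 502 higher and 381 lower genes, so 56.9% of calls were higher against 75.3%, and 3 pathway genes were higher. Averaging probe sets gave 9 pathway genes higher and 15 lower, leaving out dim genes 9 higher and 1 member lower, and array weights 8 higher.

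No call changed direction. Differences near 0 turned sign: Akt1 to -0.14 with centring and -0.059 with array weights, Akt2 to 0.16 with averaging and 0.20 without cross-hybridising probe sets, and Pik3cd to 0.05 with averaging. On leaving out single arrays Akt1 ran from -0.084 to 0.137, Akt2 from -0.273 to 0.031 and Pik3cd from -0.29 to 0.19. The cause of these shifts was not tested. Probe sets below the array median on all arrays, such as 3 of Pik3cd, limit what can be read from them.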
